A study of Mus musculus with 21 samples.

Results

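The 8 genes described here encode the receptor chains that share the common gamma chain, together with the chains of the IL-4 and IL-13 receptors: Il2rg, Il2ra, Il2rb, Il4ra, Il7r, Il15ra, Il21r and Il13ra1. They were listed by gene symbol, and all 8 were found among the 24391 genes counted. Newborn (P0) C57BL/6 mice (C57BL/6J in the study's methods) gave the RNA, with 1 sequenced library for each tissue (brain, liver, skin) and mouse, 21 libraries in all. The WT group held 5 mice and the knock-in (KI) group 2 mice of the label Jak1 KI +/-, whose genotype the study writes as Jak1 H595D/+;I596I/+;Y597Y/+. These mice carry 1 edited Jak1 allele, with the H595D substitution of the kinase and a pair of silent changes beside it. The allele was made by CRISPR/Cas9 in zygotes and passed on by a mosaic male. No treatment was given, and the labels name neither the sex nor the litter of a mouse. The comparisons ask where in the newborn these receptors were expressed, and whether their RNA differed in each tissue of the KI mice.

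The common gamma chain, encoded by Il2rg, carries no ligand specificity by itself. It joins a partner chain for each cytokine: IL-2Rβ for IL-2 and IL-15, IL-4Rα for IL-4, IL-7Rα for IL-7 and IL-21R for IL-21. JAK3 binds the gamma chain and JAK1 binds the partner chains, so the kinase edited in these mice sits on the other arm of each receptor. IL-4Rα also pairs with IL-13Rα1 to form the type II receptor, which binds IL-4 and IL-13 and is found on many cells outside the blood lineages. IL-2Rα and IL-15Rα raise the affinity for their cytokines and bind no kinase. The fetal and newborn liver is also a site of blood formation, where lymphoid and myeloid precursors that carry these receptors lie among hepatocytes.

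In the NCBIM37 (mm9) mouse genome the 8 genes include 2 neighbouring pairs. Il4ra spans chr7:132695785-132722986 on the plus strand, and Il21r follows on the same strand at chr7:132746943-132777084, after a gap of 23956 bases with no coding gene in it. Il2ra at chr2:11564419-11614818 and Il15ra at chr2:11626914-11655613 are likewise neighbours on the plus strand, 12095 bases apart. Il2rg (chrX:98459717-98463594, minus strand) and Il13ra1 (chrX:33652105-33711254, plus strand) are both X-linked. Il7r (chr15:9435916-9459631) and Il2rb (chr15:78310983-78325496) lie on the minus strand of one chromosome, far apart. In the annotation used here, 30.5% of the exon bases of Il2rg are shared with the predicted gene Gm20489 on the same strand, which the count files do not list, so reads from the 2 cannot be told apart.

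RefSeq (GRCm38.p6 table) held promoters for 7 of the 8 genes, all but Il2rb. The 250 bases upstream of the start are shown for the 4 chains that were higher in KI liver and for Il21r, the neighbour of Il4ra that was not, each on the strand of its gene. Each matched NCBIM37 exactly once on its chromosome, Il4ra at chr7:132695535-132695784, Il2rg at chrX:98463595-98463844, Il7r at chr15:9459632-9459881, Il13ra1 at chrX:33651853-33652102 and Il21r at chr7:132746693-132746942. Capitals mark the only match found to the motifs searched.
Il4ra: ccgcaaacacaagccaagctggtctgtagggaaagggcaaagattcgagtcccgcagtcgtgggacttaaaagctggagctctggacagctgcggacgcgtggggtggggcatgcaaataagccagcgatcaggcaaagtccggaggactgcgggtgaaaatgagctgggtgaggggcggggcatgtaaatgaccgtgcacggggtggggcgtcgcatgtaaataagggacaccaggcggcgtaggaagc
Il2rg: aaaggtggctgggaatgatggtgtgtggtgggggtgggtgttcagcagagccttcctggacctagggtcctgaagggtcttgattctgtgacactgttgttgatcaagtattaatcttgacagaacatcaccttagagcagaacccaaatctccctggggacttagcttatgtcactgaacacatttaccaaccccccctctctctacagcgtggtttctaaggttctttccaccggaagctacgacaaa
Il7r: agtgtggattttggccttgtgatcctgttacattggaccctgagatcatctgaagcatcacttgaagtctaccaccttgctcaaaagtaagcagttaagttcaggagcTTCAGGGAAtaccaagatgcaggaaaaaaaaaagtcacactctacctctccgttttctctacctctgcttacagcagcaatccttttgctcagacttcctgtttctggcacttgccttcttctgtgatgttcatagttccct
Il13ra1: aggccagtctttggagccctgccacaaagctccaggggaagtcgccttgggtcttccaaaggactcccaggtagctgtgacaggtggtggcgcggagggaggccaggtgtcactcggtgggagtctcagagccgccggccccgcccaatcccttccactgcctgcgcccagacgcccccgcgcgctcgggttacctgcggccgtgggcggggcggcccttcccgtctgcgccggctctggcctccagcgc
Il21r: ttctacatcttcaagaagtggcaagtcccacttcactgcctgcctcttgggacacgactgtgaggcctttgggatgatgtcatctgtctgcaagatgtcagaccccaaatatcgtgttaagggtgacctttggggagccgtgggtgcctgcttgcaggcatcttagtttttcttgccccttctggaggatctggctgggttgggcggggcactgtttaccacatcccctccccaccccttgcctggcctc
The motifs were the STAT motif TTCNNNGAA, the wider spacing TTCNNNNGAA that STAT6 can bind, and the interferon-response core GAAANNGAAA, searched on both strands. They occurred in 7.02%, 5.85% and 2.98% of 32851 mouse promoters of the same length. Among the 8 promoters of the 7 genes, only that of Il7r held a match, TTCAGGGAA, which lay 142 bases before the start.

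The libraries held between 26549326 and 38388133 counts on genes, with the smallest in brain WT 5. The tissues carried their defining markers. The summed CPM of 5 neuronal genes was 4115 to 4648 in the brain and at most 42.7 elsewhere, and that of 5 hepatocyte genes was 180445 to 230139 in the liver. In the brain the hepatocyte genes summed to 28.1 to 2032 CPM, most of it Ttr (17.1 to 2027 CPM), which the choroid plexus also makes, while Alb reached at most 5.70, Apoa1 3.17 and Afp 2.19 CPM. The keratinocyte genes ranged from 753 to 14460 CPM among the skin libraries. Y-linked genes were expressed in KI 2 and WT 3 in each tissue and were near 0 in the other mice. Values are given as CPM, counts scaled to library size times a TMM factor set over all 21 libraries. The factors were 0.68 to 0.75 in the liver and 1.11 to 1.27 in brain and skin, and a lower factor raises the CPM. RPKM is CPM divided by the length of the merged exons in kilobases and is the scale used to compare genes. A gene was called at an adjusted p under 0.1 from the quasi-likelihood test of edgeR.

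In WT mice the receptor chains differed in level between tissues, and Il13ra1 (358 to 898 counts) and Il4ra (199 to 370 counts) were read in the brain too. All 8 were lower in the brain than in the liver, and all 8 lower than in the skin, in tests over 17071 genes of which 83.4% and 79.4% were called in either direction, and 40.2% and 40.3% lower in the brain. Liver and skin shared high Il4ra, Il13ra1 and Il2rg, and Il7r, Il15ra, Il21r and Il2rb were higher in the liver. In such bulk tissue, fewer cells of a type and less RNA per cell cannot be told apart. The study's methods give the skin samples a lower RNA integrity than the liver samples. In any comparison with skin, tissue and RNA integrity therefore cannot be told apart.

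**Figure D1:**
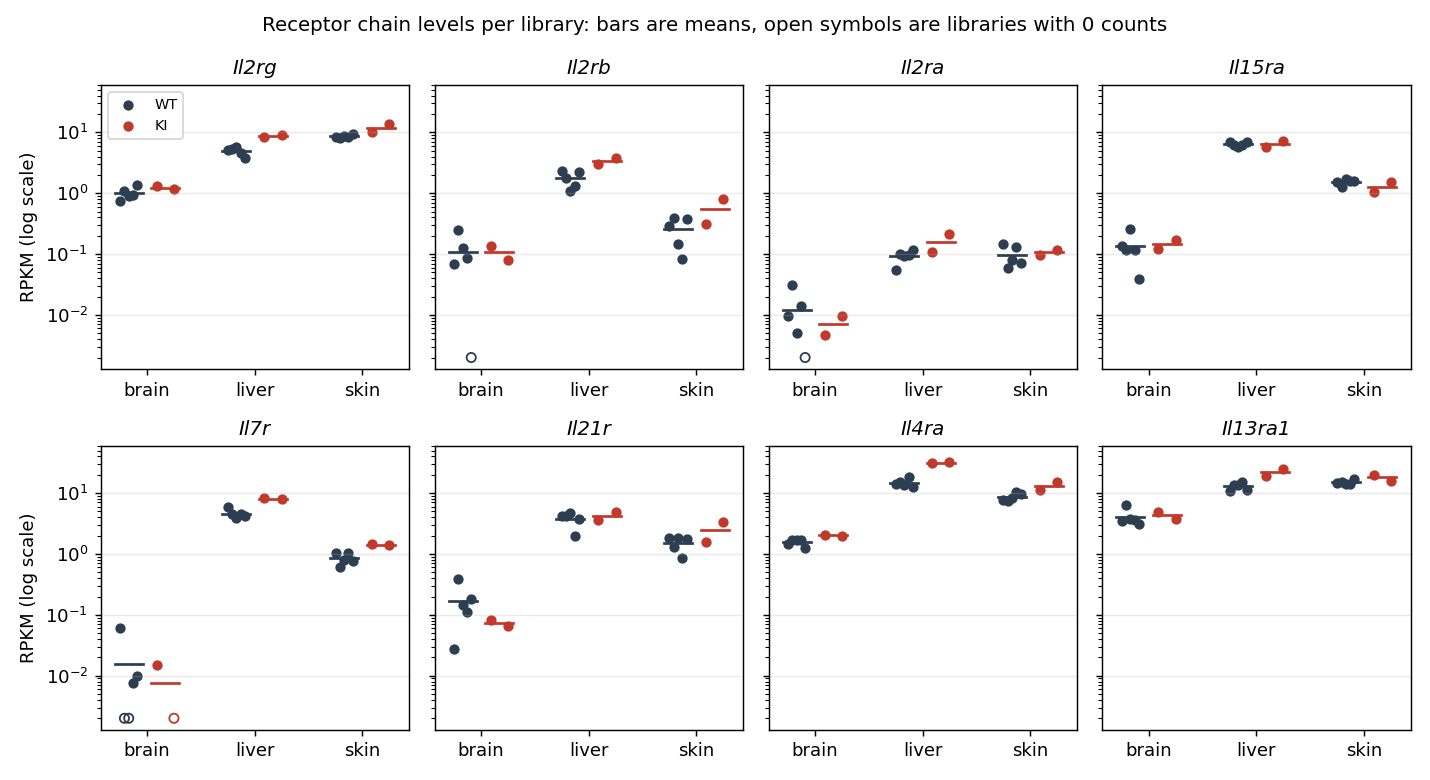
Level of each receptor chain in the 21 libraries, in RPKM on a log axis, with WT in dark blue and KI in red. Points are libraries, bars are group means and open symbols mark libraries with 0 counts. In the liver both KI points of Il4ra, near 32 RPKM, lie above the 5 WT points at 12.7 to 18.2 RPKM, while those of Il15ra lie among them.

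Il4ra, the chain that IL-4 binds, was at 12.7 to 18.2 RPKM in the 5 WT livers, 7.47 to 10.4 in the skin and 1.23 to 1.73 in the brain. It was 9.32-fold lower in the brain than in the liver (log2 difference -3.22, SE 0.143, adjusted p = 6.26e-12) and 1.69-fold higher in the liver than in the skin (log2 0.76, SE 0.131, adjusted p = 9.32e-05). The 3 tissues did not overlap. The difference between liver and skin was lost when the counts were scaled by library totals alone (log2 0.05, adjusted p = 0.725), a setting added after seeing the data that lowers the median gene of the liver against the skin by 0.81 on the log2 scale, against 0.10 with TMM.

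Il13ra1, the chain of the type II receptor that also takes IL-13, had the highest RPKM of the 8 genes in brain and skin. Its WT mean was 14.9 ± 1.22 RPKM in the skin (SD, n = 5), 12.8 ± 1.88 in the liver and 4.07 ± 1.37 in the brain. Liver and skin did not pass the test against each other (log2 -0.22, SE 0.173, adjusted p = 0.284), although with library totals Il13ra1 was called lower in the liver (log2 -0.93, adjusted p = 0.000149). The brain was 3.15-fold lower than the liver, the smallest brain deficit among the 8 genes.

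Il2rg, the shared chain, had its highest level in the skin. Its WT mean was 8.57 ± 0.544 RPKM there, 4.86 ± 0.754 in the liver and 1.00 ± 0.228 in the brain (SD, n = 5 each). It was the only one of the 8 called lower in the liver than in the skin, by 1.76-fold (log2 -0.81, SE 0.165, adjusted p = 0.000397). In WT skin its level, at most 9.43 RPKM, overlapped the 7.47 to 10.4 RPKM of Il4ra, and the order of these neighbours turned when the longest transcript gave the length.

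Il7r, Il15ra, Il21r and Il2rb were richest in the liver. Il7r, the IL-7 receptor chain of lymphoid precursors, was at 4.61 ± 0.780 RPKM in WT liver and 0.855 ± 0.190 in WT skin (SD, n = 5), a 5.40-fold difference (log2 2.43, SE 0.413, adjusted p = 7.56e-05). In the brain it reached 10 counts over the 5 WT libraries, with 0 in WT 2 and WT 3, and most of those counts, 8, came from WT 1. Il15ra, which presents IL-15 to neighbouring cells, was at 6.39 ± 0.438 RPKM in WT liver against 1.52 ± 0.157 in the skin and 0.133 ± 0.0800 in the brain. It was 4.20-fold higher in the liver than in the skin (log2 2.07, SE 0.274, adjusted p = 5.49e-06).

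Il21r, the receptor for the T-cell cytokine IL-21, was at 3.74 ± 1.02 RPKM in WT liver and 1.53 ± 0.429 in the skin, 2.45-fold apart (log2 1.29, SE 0.427, adjusted p = 0.0137). With library totals this difference was 0.59 on the log2 scale and was not called (adjusted p = 0.213). Il2rb, the signalling chain for IL-2 and IL-15, was at 1.75 ± 0.561 RPKM in the liver and 0.257 ± 0.136 in the skin, 6.83-fold apart (log2 2.77, SE 0.601, adjusted p = 0.000705). The lower level of Il2rb in the brain than in the skin passed narrowly (log2 -1.24, SE 0.612, adjusted p = 0.0778). Without WT 1 it was not called (log2 -1.07, adjusted p = 0.223), nor without WT 5 (log2 -0.78, adjusted p = 0.192).

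Il2ra, the IL-2 receptor alpha chain of activated and regulatory T cells, had the lowest mean RPKM of the 8 in every tissue, although in the brain its range overlapped that of Il7r. WT libraries held 7 to 14 counts in the liver, 11 to 26 in the skin and 0 to 6 in the brain. Liver and skin did not pass the test (log2 -0.09, SE 0.458, adjusted p = 0.880). Between liver and skin, then, 5 of the 8 chains were called higher in the liver and 1 lower, where 72.3% of all genes were called, 32.5% higher and 39.8% lower. With library totals the split was 3 higher and 2 lower, and that over all genes moved from 5555 higher and 6791 lower to 2884 and 11144.

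Within WT liver the order by RPKM was Il4ra, Il13ra1, Il15ra, Il2rg, Il7r, Il21r, Il2rb and Il2ra. Il4ra and Il13ra1 (10.7 to 15.1 RPKM) overlapped, as did the run of Il2rg (3.75 to 5.68), Il7r (3.86 to 5.92) and Il21r (2.00 to 4.65), and Il21r and Il2rb (1.08 to 2.36). Il15ra at 5.83 to 6.86 RPKM lay below Il4ra and Il13ra1 and above every value of Il2rg, but overlapped Il7r, and Il2ra lay below all others. With the longest transcript as length the order of means stayed. The mean of Il15ra was then 11.4 RPKM, nearer to Il13ra1 at 12.9 than to Il2rg at 6.95. The ratio of Il4ra to Il2rg in RPKM was 3.08 ± 0.665 in WT liver, 1.64 ± 0.436 in the brain and 1.02 ± 0.133 in the skin (SD, n = 5).

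In the liver of KI mice 4 of the 8 chains rose and none fell. Il4ra rose 2.18-fold, Il2rg 1.80-fold, Il7r 1.75-fold and Il13ra1 1.71-fold. They make up the IL-4 and IL-13 receptors of type I and type II and the IL-7 receptor. Of the 14966 liver genes tested, 3.89% were called higher and 1.68% lower, and 12.1% had both KI libraries above all WT libraries, as 5 of the 8 chains did. At an unadjusted p under 0.05 stood 5 of the 8, beside 17.9% of all genes. The median log2 difference of the 8 chains was 0.81, beside -0.02 for all genes.

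**Figure D2:**
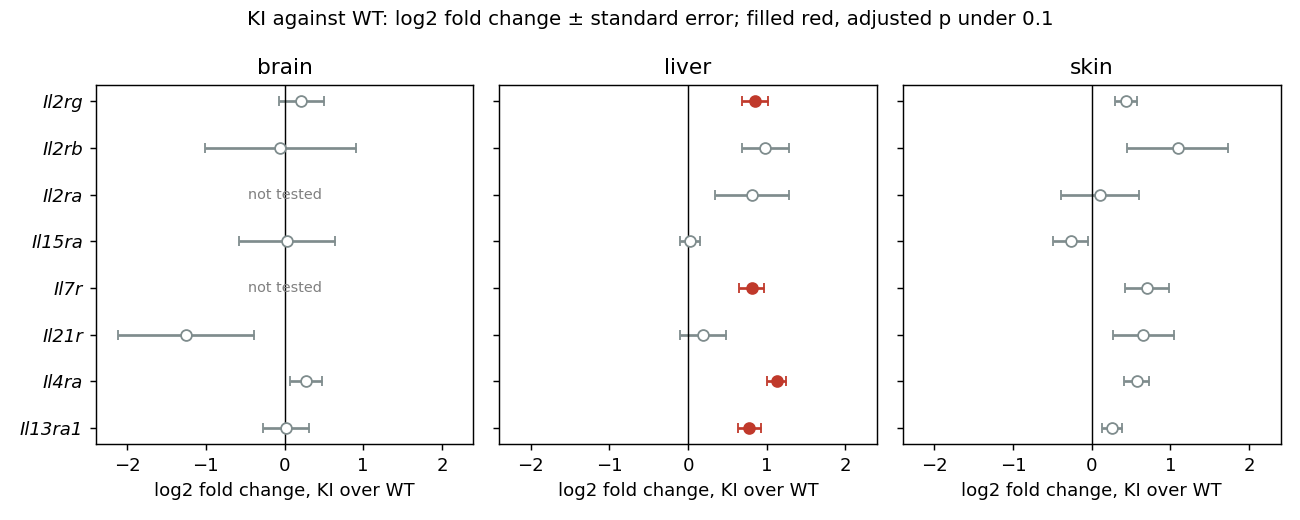
Log2 fold change of KI over WT for each receptor chain in brain, liver and skin, with bars of 1 standard error, from 2 KI and 5 WT libraries a tissue. Filled red points were called. The 4 called points are all in the liver, at 0.78 to 1.13, and Il2ra and Il7r had too few brain counts to be tested.

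Il4ra was at 161 and 163 CPM in the KI livers and at 71.1, 78.1, 68.5, 93.5 and 65.2 CPM in WT 1 to 5. Both KI values were far above the highest WT liver, and they lay close to each other. The KI mean was 162 ± 1.51 CPM and the WT mean 75.3 ± 11.2 (SD), with a log2 difference of 1.13 (SE 0.124, adjusted p = 0.00365). It stayed called in every alternative and with any 1 library left out, with adjusted p-values from 1.78e-11 to 0.0828.

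Il13ra1 was at 70.9 and 90.9 CPM in the KI livers and at 39.7, 50.5, 51.2, 56.1 and 41.2 CPM in the WT livers. The groups did not overlap, but the KI mice differed from each other more than for Il4ra. The log2 difference was 0.78 (SE 0.147, adjusted p = 0.0293). Without liver KI 2, the higher of the pair, it was 0.59 and not called (adjusted p = 0.335).

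Il2rg was at 19.8 and 21.6 CPM in the KI livers and at 12.3, 12.6, 13.6, 10.7 and 8.96 CPM in the WT livers, again without overlap. The log2 difference was 0.85 (SE 0.168, adjusted p = 0.0340). It lost its call without liver KI 1 (adjusted p = 0.144) and without liver KI 2 (adjusted p = 0.312), although its size stayed at 0.92 and 0.79. The ratio of Il4ra to Il2rg was 3.66 ± 0.189 in KI liver (SD, n = 2), inside the WT range of 2.35 to 4.06. That of Il13ra1 to Il4ra was 0.606 and 0.767 in KI liver and 0.770 to 1.03 in WT liver. The higher KI value thus lay next to the lowest WT value, and the difference in this ratio was not tested.

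Il7r was at 26.1 and 25.2 CPM in the KI livers and at 19.0, 14.7, 12.4, 14.4 and 13.5 CPM in the WT livers. WT 1 was the nearest to the KI values, and the groups did not overlap. The log2 difference was 0.81 (SE 0.162, adjusted p = 0.0343). It was not called without liver KI 1 (adjusted p = 0.202) or without liver KI 2 (adjusted p = 0.243). In the fit of all 21 libraries, which shares 1 spread among tissues, Il4ra and Il2rg were called in the liver, while Il7r (adjusted p = 0.637) and Il13ra1 (adjusted p = 0.134) were not.

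The other 4 chains did not pass the test in the liver. Il2rb came nearest, at 8.53 and 10.6 CPM in the KI livers and 6.57, 4.94, 2.99, 3.66 and 6.25 CPM in the WT livers. Both KI values lay above all WT values, with a log2 difference of 0.98 (SE 0.296, adjusted p = 0.124; DESeq2 Wald test, adjusted p = 0.0376). Il2ra had 13 and 27 counts in KI liver and 7 to 14 in WT liver (log2 0.81, SE 0.473, adjusted p = 0.409), and the groups overlapped.

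For Il15ra and Il21r, the KI livers did not lie on one side of the WT livers. Il15ra was at 23.7 and 29.2 CPM in KI liver and 24.0 to 28.3 in WT liver, 1 KI library below and 1 above all WT libraries (log2 0.02, SE 0.124, adjusted p = 0.943). Il21r was at 9.52 and 12.6 CPM in KI liver, with WT livers at 5.23 to 12.1 (log2 0.19, SE 0.290, adjusted p = 0.781). Il21r and Il15ra are the genome neighbours of Il4ra and Il2ra.

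In the skin no chain was called, in a comparison where 0.0247% of 16163 genes were called. The part of the lower RNA integrity of the skin samples in this was not tested. At an unadjusted p under 0.05, 3 of the 8 chains passed (Il4ra, Il2rg and Il7r), beside 4.57% of all genes, and the DESeq2 Wald test called 0 of the 8. Those 3 were also the chains with both KI libraries above all WT libraries, which held for 5.47% of all genes. Il4ra was at 57.1 and 77.3 CPM in KI skin and at 40.2, 38.3, 42.6, 53.1 and 48.9 CPM in WT skin (log2 0.57, SE 0.160, adjusted p = 0.758). Il2rg was at 24.0 and 32.3 CPM in KI skin and 19.1 to 22.5 in WT skin (log2 0.44, SE 0.138, adjusted p = 0.898). For both genes KI 2 was the higher of the KI pair and KI 1 lay just above the WT libraries.

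Il7r was at 4.61 and 4.44 CPM in KI skin and 1.98 to 3.38 in WT skin (log2 0.70, SE 0.278, adjusted p = 0.999). Il13ra1 overlapped, at 74.7 and 59.4 CPM in KI skin and 51.5 to 62.9 in WT skin (log2 0.26, SE 0.129, adjusted p = 0.999). The remaining chains had wide errors: Il2rb 1.09 (SE 0.639), Il21r 0.66 (SE 0.386), Il2ra 0.10 (SE 0.496) and Il15ra -0.27 (SE 0.228) in log2 difference, each at adjusted p = 0.999. KI 1 and KI 2 differed in Il2rb (32 and 72 counts) and in Il21r (148 and 281 counts).

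In the brain 6 of the 8 chains had enough counts to be tested, and none was called. Of 16322 genes tested, 0% were called by edgeR, with 10.6% at an unadjusted p under 0.05, where none of the 6 chains stood. The DESeq2 Wald test called 80 genes higher and 524 lower, and none of the 6 chains. Il4ra was at 10.4 and 10.2 CPM in KI brain and at 7.47, 8.80, 8.84, 8.85 and 6.31 CPM in WT brain, so that the groups did not overlap (log2 0.27, SE 0.197, adjusted p = 0.674). Both KI libraries lay above all WT libraries for 17.7% of brain genes. Il2rg (log2 0.22, SE 0.285) and Il13ra1 (log2 0.02, SE 0.293) overlapped between the groups.

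The other brain values rested on few counts. Il21r had 9 and 7 counts in the KI brains and 3 to 38 in the WT brains (log2 -1.25, SE 0.868, adjusted p = 0.661). Il2rb had 9 and 16 against 0 to 26 (log2 -0.06, SE 0.961), and Il15ra 21 and 28 against 5 to 42 (log2 0.03, SE 0.614). Il2ra (0 to 6 counts) and Il7r (0 to 8 counts) stayed below the filter, and no difference between KI and WT was detectable for them at this depth.

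Whether the KI effect itself differed between tissues was tested in a fit of all 21 libraries, which left out the pairing of tissues by mouse number. No chain passed, and 1 of the 8 was at an unadjusted p under 0.05 in each of the 3 pairs of tissues, beside 15.1% of all genes for brain and liver, 7.41% for brain and skin and 5.54% for liver and skin. The nearest was Il4ra, whose KI effect was smaller in the brain than in the liver by 0.75 on the log2 scale (SE 0.238, adjusted p = 0.132), where 2.81% of 18062 genes were called. It was called by the DESeq2 Wald test (adjusted p = 0.0471), without the mice WT 4 (adjusted p = 0.0755) or WT 5 (adjusted p = 0.0691), and with library totals (adjusted p = 0.0796). Between liver and skin, where 0.0997% of genes were called, the effects differed by 0.52 for Il4ra (SE 0.235, adjusted p = 0.866), 0.37 for Il2rg (SE 0.284), 0.49 for Il13ra1 (SE 0.316) and 0.07 for Il7r (SE 0.678). Between brain and skin 0% of genes were called by edgeR and the DESeq2 Wald test called 19 higher and 37 lower, none of them a receptor chain. That the calls fell in the liver is therefore not shown to set the liver apart.

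A list of 41 other genes of the same receptors covered ligands, further receptors, kinases, STATs, adaptors, feedback inhibitors and targets. In the liver 30 of them were tested, 5 rose and none fell, beside 5.57% of all genes called in either direction. Their median log2 difference was 0.23, and -0.02 over all genes.

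**Figure D3:**
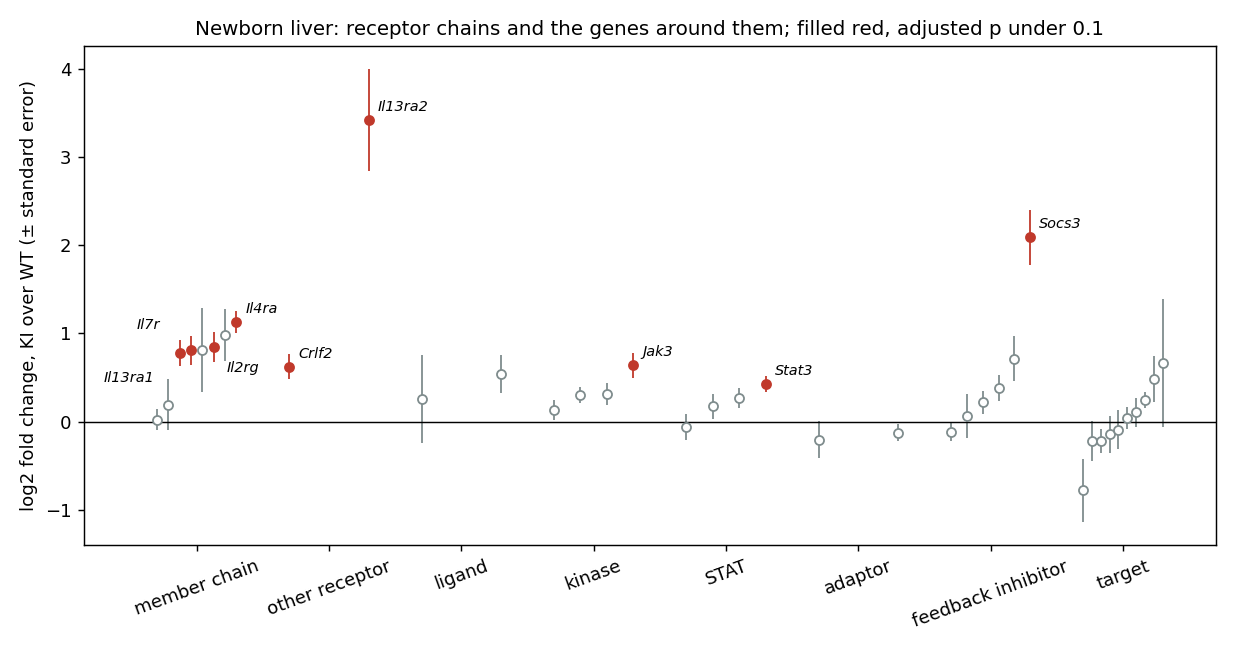
Log2 fold change of KI over WT in the liver, with bars of 1 standard error, for the 8 receptor chains and the 30 tested genes around them, in order of value within each role. Filled red points were called. Il13ra2 at 3.42 and Socs3 at 2.09 stand above the called receptor chains at 0.78 to 1.13, while none of the target genes was called.

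Among the further receptors, Il13ra2 showed the widest change. It encodes the chain that binds IL-13 with high affinity and acts largely as a decoy. It had 77 and 91 counts in the KI livers (3.32 and 3.61 CPM) and 2 to 14 in the WT livers (0.0845 to 0.655 CPM), a 10.7-fold rise on a low level (log2 3.42, SE 0.578, adjusted p = 0.0194). It was not called without liver KI 1 (adjusted p = 0.106) or liver KI 2 (adjusted p = 0.188). Crlf2, the TSLP receptor chain that pairs with IL-7Rα, rose from 11.3 ± 1.40 CPM (SD, n = 5) to 17.1 ± 0.800 (SD, n = 2; log2 0.62, SE 0.143, adjusted p = 0.0572). Il9r, the third of these receptors, was not tested in any tissue because its counts were too low.

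Jak3, the kinase of the gamma chain, rose in the KI liver from 31.7 ± 5.24 to 48.8 ± 2.33 CPM (log2 0.64, SE 0.141, adjusted p = 0.0502). The other 3 kinases were not called, and Jak1 itself was at 272 and 290 CPM in KI liver and 207 to 246 in WT liver (log2 0.30, SE 0.0914, adjusted p = 0.125). Of the STATs, Stat3 rose from 196 ± 13.8 to 261 ± 5.00 CPM (log2 0.43, SE 0.0872, adjusted p = 0.0377). Stat6, which IL-4 and IL-13 signals use, was at log2 0.26 (SE 0.113, adjusted p = 0.263), and Stat5a and Stat5b, used by IL-2, IL-7 and IL-15, at -0.06 and 0.18. Without liver KI 1 neither Jak3 (adjusted p = 0.192) nor Stat3 (adjusted p = 0.171) nor Crlf2 (adjusted p = 0.215) was called, and without liver KI 2 the adjusted p-values were 0.348, 0.304 and 0.384. With the Y-linked covariate Jak3 (adjusted p = 0.108) and Crlf2 (adjusted p = 0.115) were not called. Crlf2 also lost its call without liver WT 1 (adjusted p = 0.101) or liver WT 3 (adjusted p = 0.1005), and the fit of all 21 libraries called none of Jak3 (adjusted p = 0.242), Stat3 (adjusted p = 0.198) and Crlf2 (adjusted p = 0.219).

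Of the 6 feedback inhibitors, Socs3 alone was called. It was at 105 and 115 CPM in the KI livers and 12.7 to 36.3 in the WT livers, a 4.25-fold rise (log2 2.09, SE 0.314, adjusted p = 0.0120; without liver KI 2, adjusted p = 0.149). Cish, an inhibitor induced through STAT5, was at log2 -0.12 (SE 0.0991, adjusted p = 0.577), and Socs1 at 0.72 (SE 0.258, adjusted p = 0.195). None of the 10 tested target genes was called. Chil3 and Arg1, which IL-4 and IL-13 induce in macrophages, were at log2 0.04 (SE 0.127) and -0.22 (SE 0.227), with KI values inside the WT range. Arg1 was high in both groups, at 941 to 1064 CPM in KI liver and 911 to 1786 CPM in WT liver. In bulk liver the RNA of macrophages cannot be told from that of other cells. These values therefore do not report on a macrophage response.

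The ligands were scarce. In the liver 2 of 8 passed the filter: Il15 was at 9.30 and 11.2 CPM in KI liver and 5.79 to 9.08 in WT liver (log2 0.54, SE 0.215, adjusted p = 0.235), and Il7 had 11 and 22 counts against 6 to 17. Il4 had 0 and 20 counts in the KI livers and 3 to 9 in the WT livers, and Il13 had 0 in both KI livers and at most 2 in WT livers. In the skin Il4 was at 8 and 11 counts in KI mice and 17 to 70 in WT mice (log2 -1.77, SE 0.715, adjusted p = 0.999).

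In the skin none of the 33 tested genes of the list was called, and 5 were at an unadjusted p under 0.05, beside 4.57% of all genes. Irs2, an adaptor that IL-4Rα recruits, came nearest, at 30.0 and 35.8 CPM in KI skin and 11.5 to 22.4 in WT skin (log2 0.92, SE 0.231, adjusted p = 0.731; DESeq2 Wald test, adjusted p = 0.0832). Socs3 was at log2 1.38 (SE 0.455, adjusted p = 0.944) and Stat3 at 0.44 (SE 0.161, adjusted p = 0.999). In the brain none of the 30 tested genes was called, and 3 were at an unadjusted p under 0.05, a share close to the 10.6% of all genes. The 4 with the smallest p were Ccl24 (log2 -2.52, SE 0.807), Stat3 (0.33, SE 0.123), Il15 (-1.44, SE 0.594) and Jak2 (0.24, SE 0.123), at adjusted p-values of 0.355, 0.408, 0.447 and 0.551.

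Leukocyte RNA moved with the liver result, in a comparison where 3.89% of all genes were called higher. All 3 pan-leukocyte genes rose in KI liver, Ptprc by 0.70, Coro1a by 0.59 and Laptm5 by 0.51 on the log2 scale (adjusted p = 0.0158, 0.0716 and 0.0251), and their summed CPM was 660 to 763 in KI liver and 433 to 515 in WT liver. Of the macrophage genes 5 of 8 rose (sum 1768 to 2049 against 1146 to 1558 CPM), of the B-lineage genes 3 of 8 (sum 211 to 223 against 146 to 184 CPM) and of the neutrophil genes 2 of 7 tested (sum 8683 to 10290 against 5613 to 7225 CPM). Of the NK-cell genes 2 of 5 tested rose (sum 56.1 to 59.2 against 27.3 to 39.5 CPM) and of the mast-cell genes 2 of 4 (sum 7.79 to 13.6 against 4.82 to 7.82 CPM). None of the 6 tested T-cell genes was called (sum 18.1 to 18.4 against 11.3 to 13.4 CPM).

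**Figure D4:**
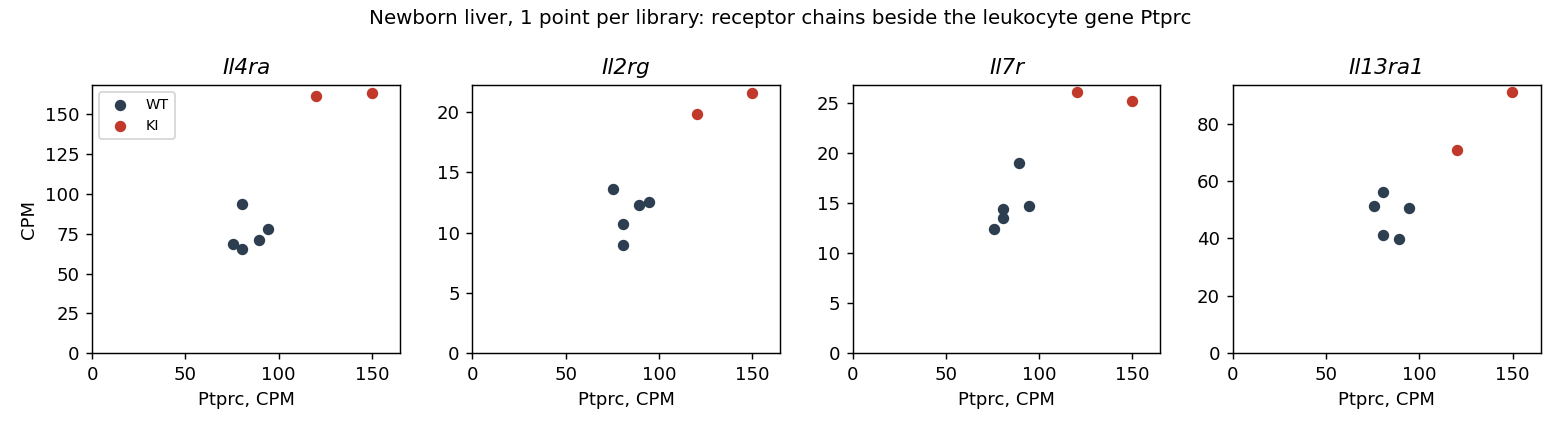
CPM of Il4ra, Il2rg, Il7r and Il13ra1 against CPM of the leukocyte gene Ptprc in the 7 livers, 1 point per library, both axes from 0. The KI livers, at 120 and 150 CPM of Ptprc, lie to the right of the 5 WT livers, at 75.6 to 94.5, as well as above them for each of the 4 genes.

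Per unit of Ptprc, the KI and WT livers overlapped for all 4 called chains. The ratio of Il4ra to Ptprc counts was 1.09 and 1.34 in KI liver and 0.795 to 1.16 in WT liver. Its mean was 1.22 in KI liver and 0.900 in WT liver, and the overlap came from WT 4 alone. That of Il2rg was 0.144 to 0.165 in KI liver inside the WT range of 0.111 to 0.179, and that of Il13ra1 0.590 to 0.606 inside 0.444 to 0.696. For Il7r it was 0.168 to 0.217 against 0.155 to 0.212. Hepatocyte genes gave no call (sum 180445 to 182932 CPM in KI liver, 185263 to 230139 in WT liver). Of the 4 tested erythroid genes Slc4a1 was called lower (log2 -0.51, adjusted p = 0.0956). The erythroid sum was 3231 to 3363 CPM in KI liver and 3817 to 5219 in WT liver. The part of blood cells in the receptor differences was not tested.

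In KI skin, all 7 tested macrophage genes had both KI libraries above all WT libraries, beside 5.47% of all genes. All 7 were at an unadjusted p under 0.05 in the edgeR test, beside 4.57% of all genes, and none was called. The macrophage sum was 764 and 1037 CPM in KI skin against 492 to 692 in WT skin. The pan-leukocyte sum was 170 and 225 CPM in KI skin and 120 to 149 in WT skin. In each of these sums KI 2 was the higher, as it was for every chain but Il7r and Il13ra1, where KI 1 was. The B-lineage sum was 113 to 119 CPM in KI skin and 80.3 to 101 in WT skin. The mast-cell, T-cell, NK-cell and neutrophil sums overlapped between the groups. The ratio of Il4ra to Ptprc was 3.12 to 3.41 in KI skin inside the WT range of 2.24 to 4.15. Keratinocyte genes summed to 11793 CPM in KI 1 and 753 in KI 2, the latter below every WT skin (1262 to 14460 CPM). What part these played in the skin values was not tested.

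Across all 21 libraries the 8 chains followed one another to different degrees. Pearson's r between 2 chains in log2 CPM ran from 0.57 for Il2rg with Il2rb to 0.97 for Il4ra with Il7r. Among 18061 other genes, those most like Il4ra were Ctsc, Stat3 and Hfe, each with r = 0.99. Il2rg was closest to Plvap, Coro1b and Pros1 (r = 0.99), Il7r to Lrmp, Samsn1 and Fas (r = 0.99) and Il15ra to Myo1g, Baz1a and Ccdc125 (r = 0.99). Il13ra1 and Il2ra shared Ms4a6d and Csf2rb2 among their nearest 3 (r = 0.98 for Il13ra1, 0.95 for Il2ra), beside Ms4a6b for Il13ra1 and Ccdc122 for Il2ra. Il21r was nearest to Pf4, Cd48 and Lrrc25 (r = 0.98), and Il2rb to Herc6, Cd84 and Csf3r (r = 0.95 to 0.96). These values share libraries, depth and the 3 tissues, and are a description only.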

How the data were processed

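Newborn brain, liver and skin of 2 KI and 5 WT mice were examined, 21 libraries grouped by their labels. According to the study's methods, the authors prepared libraries with the TruSeq RNA Library Prep Kit v2, trimmed paired-end reads and aligned them to mm9 with TopHat2. The labels' tools include HTSeq, and the authors deposited these counts unscaled, 1 value per gene symbol, followed by 5 summary lines for unassigned reads. The summary lines were left out; 80.5% to 87.6% of uniquely aligned reads lay on genes. The kit is not strand-marked, so antisense reads cannot be separated. The study's GFOLD step was not used here.

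The quasi-likelihood test of edgeR 4.0.16 (limma 3.58.1, R 4.3.3), after filterByExpr and with TMM factors, compared KI with WT within each tissue (7 libraries), between tissues in WT (15 libraries), and for differences of the KI effect (21 libraries). Benjamini-Hochberg adjustment ran over all genes tested, at 0.1. Standard errors are the log2 difference divided by the root of F. CPM used TMM factors over 21 libraries, and RPKM the merged exons of GENCODE genes on NCBIM37. Nothing says more of the mice than their numbers, and with 2 KI mice p-values measure the spread between these few samples. The receptor genes and gene lists were chosen with earlier results of these data known.

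All 8 receptor genes were named in each comparison, with the pathway genes called in a tissue (or the 4 with the smallest p where none was), the called marker genes where a list had 5 or fewer, and, for likeness, the 3 genes with the highest r. Alternatives were DESeq2 1.42.0 size factors and Wald test, no filter beyond 1 count, adjusted p of 0.05, a single fit over the 21 libraries, a replicate block, a covariate of Y-linked expression, each mouse left out, the longest transcript as length and, added after seeing the data, library totals. Scripts were tested on simulated counts. Figures used Python 3.11.15, pandas 2.3.3, numpy 2.4.6 and matplotlib 3.10.9.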

Additional observations from a re-analysis of the deposited data

Results flagged for a closer look

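Among 24 groups of 5 WT libraries, the 8 chains in 3 tissues, 2 held a library far from the others by Dixon's test, about what chance gives, 1 in 20 groups. In the brain Il7r was at 0.194 CPM in WT 1, from 8 counts, with the other WT brains at 0 to 0.0317 CPM. In the brain Il13ra1 was at 24.0 CPM in WT 2, with the others at 11.4 to 14.0 CPM. That library was also the highest WT brain in macrophage markers, at 155 CPM beside 80.0 to 124 CPM, and in fibroblast markers, at 521 CPM beside 139 to 221 CPM. Their part in the value of Il13ra1 was not tested.

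The KI effect on Il13ra2 differed between brain and liver by -4.36 on the log2 scale (SE 1.21, adjusted p = 0.0854). It was at 0.173 and 0.263 CPM in the KI brains and 0.0478 to 1.23 CPM in the WT brains, and rose in the KI liver. Over its alternatives the adjusted p ran from 0.0546 to 0.743. It was not called without the mouse KI 1 (adjusted p = 0.538), KI 2 (0.743), WT 1 (0.140) or WT 2 (0.143), with no filter beyond 1 count (0.102), or at a threshold of 0.05.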

How the results depend on the processing

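The count of 4 chains called in KI liver was 4 under an adjusted p of 0.05, DESeq2 size factors, no filter, the replicate block, the Y-linked covariate and library totals, 5 under the DESeq2 Wald test and 2 in the fit of all 21 libraries. It stayed at 4 with any 1 WT liver left out. Without either KI liver fewer chains were called, and fewer genes in all, in fits that hold 1 KI library. The 5 pathway genes called in the liver became 3 at an adjusted p of 0.05, 2 in the fit of all 21 libraries and 3 with the Y-linked covariate. Under the replicate block 3 were called, Il13ra2 and Socs3 higher and Postn lower. Crlf2, Jak3 and Stat3 were then not called (adjusted p = 0.152, 0.103 and 0.112). The pathway genes called numbered 4 to 7 with 1 WT liver left out, and fewer without either KI liver. In the brain 1 pathway gene was called in the fit of all 21 libraries, 1 under the replicate block and 0 to 2 with 1 library left out (2 without WT 5). In the skin 1 was called by the DESeq2 Wald test. For brain against liver effects 1 chain was called by the DESeq2 Wald test, 1 with library totals and 0 to 1 with 1 mouse left out.

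Same-numbered KI and WT libraries shared only a number: their deviations correlated on average at -0.02 (brain), -0.04 (liver) and 0.10 (skin), over 2 pairs each. The replicate block kept 4 chains called in the liver and moved the brain from 0 to 2165 called genes. Within a tissue this block sets KI 1 and KI 2 against WT 1 and WT 2. The other WT libraries share no number with a KI library and add nothing to the difference. The block therefore cannot show whether the calls hold over all 5 WT mice. Between WT tissues, and for differences of the KI effect, the block was the mouse number, a pairing that the main fits left out. With it no chain was called for a difference of the KI effect. WT deviations of 1 number correlated on average at 0.07 (brain and liver), 0.07 (brain and skin) and 0.09 (liver and skin). Those of different numbers averaged -0.02 in each pair of tissues. With this block Il2rb between WT brain and skin moved from called to not called (adjusted p = 0.110).

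Direction turned for values near 0. Il13ra1 in the brain was -0.21 with the replicate block and ran from -0.15 to 0.25 with 1 library left out. Il15ra ran from -0.22 to 0.41 in the brain (-0.20 with the Y-linked covariate), -0.13 to 0.18 for the liver and -0.58 to 0.031 in the skin. Il21r in the liver ran from -0.018 to 0.39, Il2ra in the skin from -0.021 to 0.28 and Il2ra between WT liver and skin from -0.28 to 0.23. Il2rb in the brain ran from -0.47 to 0.51, and was 0.019 in the fit of all 21 libraries. Il7r between liver and skin effects ran from -0.022 to 0.17. Of 900 log2 differences recomputed, 829 kept direction and call, 40 lost and 9 gained a call, and 22 turned. The cause was not tested. Called genes in all numbered 833 in the liver, 242 in the fit of all 21 libraries, 379 with the Y-linked covariate, 383 at an adjusted p of 0.05 and 1489 by the DESeq2 Wald test. In the brain 0 were called, 604 by the DESeq2 Wald test, 614 in the fit of all 21 libraries and 1698 without WT 5, and in the skin 4, 107 and 23. With 2 KI mice, leaving 1 out assumes that the other varies like WT mice.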
